A study of Mus musculus with 2 samples.

Results

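The 10 genes described here encode two-pore domain potassium channels: Kcnk1, Kcnk2, Kcnk3, Kcnk4, Kcnk5, Kcnk6, Kcnk9, Kcnk10, Kcnk12 and Kcnk13. They were taken by symbol from a fixed list, and each of the 10 matched 1 row of the gene tables, out of 43346 Ensembl genes. Polyadenylated RNA came from adrenal tissue of a female mouse of the C57BL/6J strain, adult at 10 weeks, with no treatment or further genotype named. It was sequenced as 2 libraries, replicate 2 and replicate 1, which per the labels are technical replicates of 1 biological sample. Replicate 2 was added later, so library and date cannot be told apart, and no error given below covers differences between animals. Rounded expected counts summed to 17376660 in replicate 2 and to 28267651 in replicate 1. Mitochondrial genes and their nuclear copies took 15.3% of counts in replicate 2 and 53.1% in replicate 1. Markers of the steroid-producing cortex were abundant, with Hsd3b1, a 3β-hydroxysteroid dehydrogenase, at 11133 TPM in replicate 2 and 2871 TPM in replicate 1.

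Two-pore channels are dimers whose subunits each carry a pair of pore loops, and they pass the background potassium current that holds a resting cell near the potassium equilibrium potential. In cortical cells that current keeps voltage-gated calcium channels closed. Angiotensin II and extracellular potassium depolarise zona glomerulosa cells and thereby raise aldosterone output. TASK-1 and TASK-3, the products of Kcnk3 and Kcnk9, are acid-sensitive and are inhibited through Gq-coupled receptors. Mice lacking both genes are known for an excess of aldosterone, and mice lacking Kcnk3 for disturbed cortical zonation.

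The sequences below show the part that makes these genes potassium channels, the codons of the selectivity filter in the first pore loop, for the 7 members with counts. They come from the GENCODE M21 transcripts on GRCm38 and are written 5′ to 3′ on the coding strand. Capitals mark the filter codons, with 18 coding bases on each side.
Kcnk3: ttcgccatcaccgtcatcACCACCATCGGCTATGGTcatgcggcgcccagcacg
Kcnk9: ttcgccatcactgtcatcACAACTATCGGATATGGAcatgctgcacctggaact
Kcnk5: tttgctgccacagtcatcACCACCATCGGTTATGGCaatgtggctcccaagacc
Kcnk2: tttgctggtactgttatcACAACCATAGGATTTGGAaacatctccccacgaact
Kcnk1: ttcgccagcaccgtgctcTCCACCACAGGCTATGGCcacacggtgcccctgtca
Kcnk6: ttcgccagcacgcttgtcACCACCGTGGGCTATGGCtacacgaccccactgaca
Kcnk13: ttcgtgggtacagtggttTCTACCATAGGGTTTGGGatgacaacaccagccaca
The filters were found by searching the translated coding sequences for serine or threonine, threonine, 1 of isoleucine, valine and threonine, glycine, 1 of tyrosine, phenylalanine and leucine, and glycine. All 10 members held exactly 2 such matches. In all 10 the first stretch crossed a splice junction, while in 6 of 10 the second lay within 1 exon. The second filter of the TASK pair is shown because its stretch is unspliced in both genes, at chr5:30622181-30622234 on the plus strand for Kcnk3 and at chr15:72512701-72512754 on the minus strand for Kcnk9.
Kcnk3, second filter: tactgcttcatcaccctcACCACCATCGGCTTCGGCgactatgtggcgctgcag
Kcnk9, second filter: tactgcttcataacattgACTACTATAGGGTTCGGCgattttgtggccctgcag
The same short motif was written with different base composition. GC content of the first filter codons was 55.6% in Kcnk3 and 38.9% in Kcnk9, and GC content at the third codon position over the whole coding sequence was 91.4% in Kcnk3 and 65.4% in Kcnk9. Across the 10 members coding GC content ran from 50.9% for Kcnk10 to 69.9% for Kcnk12. The longest run of identical bases between the coding sequences of Kcnk3 and Kcnk9 was 20, and the longest between any pair of members was 26, for Kcnk12 and Kcnk13. No member had a near-identical transcript of another gene, defined as a match over 50% or more of the length at an identity of 95% or more.

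Kcnk3 was by far the most abundant member in both libraries, and 3 of the 10 genes had no counts at all. TPM, which corrects for transcript length, was used to compare levels between genes. The ratio between the libraries moved with GC content, as given below. TPM shares, orders and ratios between members of unlike GC content therefore carry that limit. Summed over the members it was 658 in replicate 2 and 44.4 in replicate 1, of which Kcnk3 took 90.4% in replicate 2 and 82.9% in replicate 1. Members at a TPM of at least 1 numbered 6 in replicate 2 and 3 in replicate 1, and the 3 that reached it in both were Kcnk3, Kcnk2 and Kcnk1. Among protein-coding genes 40.9% reached it in both libraries.

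**Figure D1:**
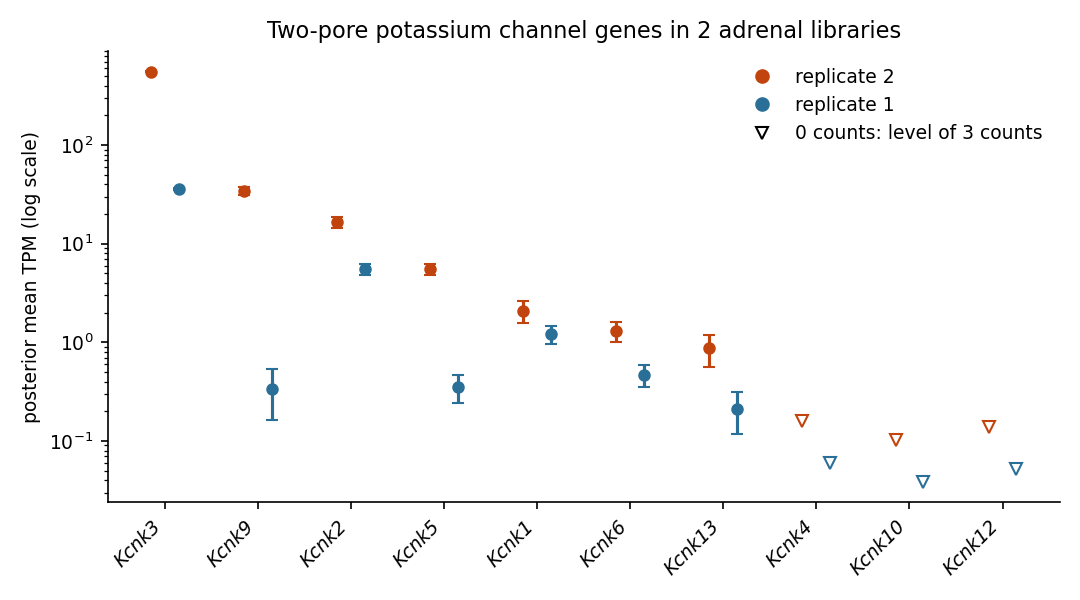
Posterior mean TPM (log axis) of the 10 members in replicate 2 and replicate 1 of the adrenal sample; bars are the interval deposited with each value, and open triangles mark the level of 3 counts for genes with 0 counts. Kcnk3 stands highest in both libraries, and Kcnk9 differs most between them, at 34.5 in replicate 2 and 0.34 in replicate 1.

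Kcnk3, on chromosome 5 at 30588170 to 30625271 (GRCm38, plus strand), encodes TASK-1. It had 595 TPM in replicate 2 and 36.8 TPM in replicate 1, a mean of 316 ± 395 TPM (SD, n = 2). Its 26886 counts in replicate 2 and 4423 in replicate 1 came from a single deposited transcript of 3810 bases. Replicate 2 was the high library for this gene on the TPM scale. Ranked over nuclear genes by TPM, Kcnk3 stood at place 125 in replicate 2 and at place 976 in replicate 1. With TPM rescaled over nuclear genes, which removes the unequal mitochondrial load, it stood at 965 in replicate 2 and 210 in replicate 1. A processed transcript on the opposite strand, Gm9899, shares 229 exon bases with Kcnk3 and had 19 counts in replicate 2 and 1 count in replicate 1. Whether counting used strand is not given in the sources used here, so reads of this pair over the shared bases may not have been separated. The same limit holds for Kcnk2 and Kcnk1. Kcnk2 shares 604 exon bases with A430027H14Rik on the opposite strand, which had 0 counts in both libraries. Kcnk1 shares 179 with Gm45875 on the opposite strand, which was not among the genes counted.

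Kcnk9, on chromosome 15 at 72501089 to 72546340 (minus strand), encodes TASK-3, which can pair with TASK-1. It had 37.0 TPM in replicate 2 and 0.32 TPM in replicate 1, from 471 counts in replicate 2 and 11 counts in replicate 1. The deposited interval of its posterior mean TPM was 31.4 to 37.6 in replicate 2 and 0.162 to 0.542 in replicate 1, so the libraries were far apart. Its deposited transcript had 1209 bases, which is the coding sequence of 1206 bases with a stop codon. The same transcript has 12300 bases in GENCODE M21. Fragments from its untranslated parts were therefore not in the deposited count, and its TPM is a level per coding length. On TPM Kcnk3 exceeded Kcnk9 by 16.1 times in replicate 2 and by 115 times in replicate 1.

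Kcnk5 encodes TASK-2, an alkaline-activated channel grouped by sequence with the TALK channels. It had 5.93 TPM in replicate 2 and 0.35 TPM in replicate 1, from 235 counts in replicate 2 and 37 counts in replicate 1. The TPM ratio of Kcnk5 to Kcnk3 was nearly the same in the libraries, 0.00997 in replicate 2 and 0.00952 in replicate 1. By contrast the ratio of Kcnk9 to Kcnk3 was 7.15 times higher in replicate 2. Neither TPM ratio was corrected for GC content. With the GC trend of the deposited transcripts removed, log2 ratios of replicate 2 to replicate 1 were -0.26 for Kcnk5, -1.88 for Kcnk3 and 2.43 for Kcnk9.

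Among the mechanosensitive members only Kcnk2 was detected. It encodes TREK-1, which in bovine zona fasciculata cells carries the leak current that corticotropin inhibits. Kcnk2 had 15.8 TPM in replicate 2 and 5.04 TPM in replicate 1, a mean of 10.4 ± 7.60 TPM (SD, n = 2). Its 537 counts in replicate 2 and 501 counts in replicate 1 were close to each other, as was its TPM rescaled over nuclear genes, 25.6 in replicate 2 and 28.8 in replicate 1. Kcnk10, which encodes TREK-2, and Kcnk4, which encodes TRAAK, had 0 counts in both libraries. For Kcnk10 the floor of 3 counts allows up to 0.103 TPM in replicate 2 and 0.0385 TPM in replicate 1. The same floor allows, in Kcnk4, 0.158 TPM in replicate 2 and 0.0592 TPM in replicate 1. Kcnk4 shares 587 exon bases with Catsperz on the same strand in GENCODE M21, which had 1 count in replicate 2 and 0 in replicate 1.

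Kcnk2 was the only member with counts assigned to more than 1 transcript. Of its 10 deposited transcripts, 5 had counts in replicate 2 and 3 in replicate 1. The protein-coding transcript of 3297 bases took 25.3% of the gene in replicate 2 and 62.3% in replicate 1. A transcript of 3131 bases that GENCODE M21 labels as a target of nonsense-mediated decay took 55.6% in replicate 2 and 34.2% in replicate 1. The order of the leading pair thus differed between the libraries. Deposited intervals of posterior mean TPM in replicate 2 were 1.24 to 5.27 for the first and 6.53 to 10.3 for the second, which do not overlap. In replicate 1 they were 2.13 to 3.68 for the first and 0.968 to 2.49 for the second, which do. These shares are estimates from overlapping transcripts and were not tested.

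**Figure D2:**
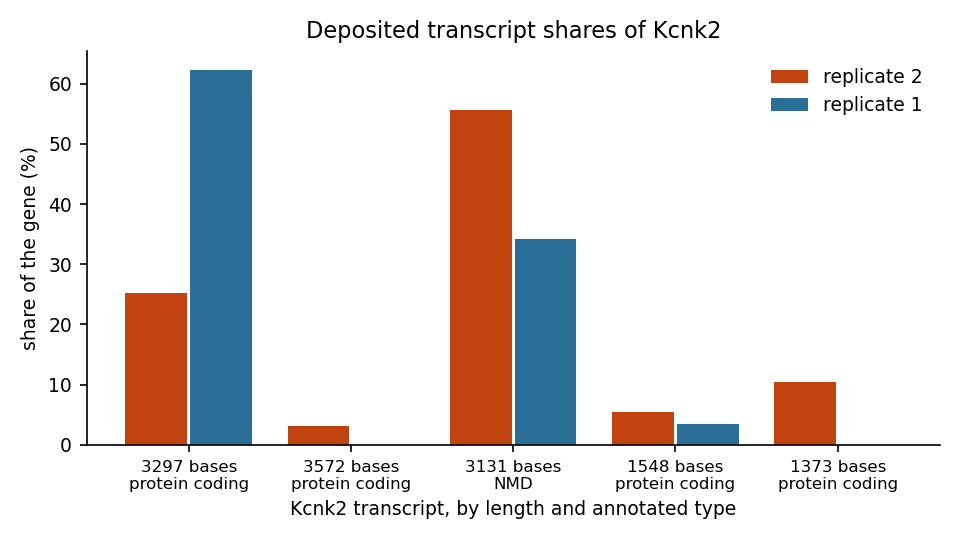
Deposited share of each Kcnk2 transcript within the gene (percent) in replicate 2 and replicate 1, for the 5 transcripts with counts in either library. The 3131-base transcript leads in replicate 2 at 55.6% and the 3297-base transcript in replicate 1 at 62.3%.

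Kcnk1 and Kcnk6 encode the weakly rectifying channels TWIK-1 and TWIK-2 and were low. Kcnk1 had 2.20 TPM in replicate 2 and 1.24 TPM in replicate 1, from 58 counts in replicate 2 and 87 counts in replicate 1. Kcnk6 had 1.38 TPM in replicate 2 and 0.47 TPM in replicate 1, from 67 counts in replicate 2 and 61 counts in replicate 1. Kcnk1 exceeded Kcnk6 by 1.59 times in replicate 2 and 2.64 times in replicate 1 on TPM.

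Kcnk13 encodes THIK-1, a halothane-inhibited channel known from microglia, and had the lowest level of the detected members. It had 0.78 TPM in replicate 2 and 0.16 TPM in replicate 1, from 28 counts in replicate 2 and 15 counts in replicate 1. The summed TPM of 5 macrophage markers was 137 in replicate 2 and 3.23 in replicate 1, with all 5 above 0 in both libraries. A TPM of at least 1 was reached by 5 of them in replicate 2 and by 0 in replicate 1. These sums were not corrected for GC content. With the GC trend of the deposited transcripts removed, the median log2 ratio of replicate 2 to replicate 1 was 1.06 for these markers. In the same setting that of Kcnk13 was -2.16. The part of macrophages in the level of Kcnk13 was not tested. Bulk RNA does not separate the number of cells from the RNA per cell. Because the labels give the libraries as repeats on the same sample, the difference between the marker sums is not read as one in cells. Kcnk12, which encodes the silent subunit THIK-2, had 0 counts in both libraries, which allows up to 0.138 TPM in replicate 2 and 0.0517 TPM in replicate 1.

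The order of the detected members was therefore partly shared. In replicate 2 it ran Kcnk3, Kcnk9, Kcnk2, Kcnk5, Kcnk1, Kcnk6, Kcnk13, and the deposited intervals of neighbours overlapped for Kcnk1 and Kcnk6 and for Kcnk6 and Kcnk13. In replicate 1 it ran Kcnk3, Kcnk2, Kcnk1, Kcnk6, Kcnk5, Kcnk9, Kcnk13, and the intervals of neighbours overlapped from Kcnk6 downward. Kcnk9 held place 2 in replicate 2 and place 6 in replicate 1. The remaining mouse genes of the family, Kcnk7, Kcnk15, Kcnk16 and Kcnk18, had 0 counts in both libraries.

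The libraries were then compared gene by gene on counts. Counts were scaled by TMM, which sets library sizes on the assumption that most genes do not differ, and a gene was called at an adjusted p under 0.05 with at least a 2-fold ratio. This compares the libraries, not conditions. A summed count of 20 was needed, which 7 members passed and the 3 at 0 counts did not. Of the 7, 3 were called higher in replicate 2, where 36.5% of 14358 tested genes were, and 1 was called lower, where 27.8% were. The median log2 ratio of the 7 was 0.45, against 0.10 over all tested genes. These shares do not set the members apart from other genes. With total-count scaling, which moved the median of all tested genes to 1.24, 4 members were higher, where 54.2% of genes were, and none was lower, where 3.98% were. With nuclear total-count scaling 3 were higher beside 40.4% of genes, and none was lower beside 20.8%. With the length trend removed 3 were higher beside 35.8% of genes and 1 was lower beside 25.6%. Without the fold minimum 2 were lower beside 41.9%.

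Kcnk9 showed the largest ratio of the members, 30.4-fold higher in replicate 2 (95% exact interval 17.6 to 64.0, exact binomial test, Benjamini-Hochberg adjusted p = 2.20e-95). Kcnk5 was 4.65-fold higher (3.32 to 6.85, exact binomial test, adjusted p = 1.67e-24). Kcnk3 was 4.50-fold higher (4.36 to 4.65), with an exact binomial p too small to be computed. Kcnk1 was called lower at 0.495 times (0.348 to 0.696, exact binomial test, adjusted p = 4.32e-05), just past the 2-fold minimum, and its call ended without the count filter (log2 ratio -0.96) and with nuclear total-count scaling (-0.73), while total-count scaling turned its ratio to 0.12. Kcnk2 was at 0.794 times (0.701 to 0.898) and missed the 2-fold minimum. Kcnk6 at 0.813 times (0.566 to 1.17) and Kcnk13 at 1.36 times (0.714 to 2.78) did not pass, with exact binomial adjusted p = 0.265 for Kcnk6 and 0.377 for Kcnk13. These intervals cover counting error only.

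The ratio between the libraries moved with GC content across all tested genes. The median log2 ratio was -1.90 for genes under 42% GC and 4.66 for genes at 58% or more. In the class from 46% to 50%, which holds Kcnk2 at 48.5%, the median was -0.38, and Kcnk2 stood at -0.33. Kcnk6 at 51.3% and Kcnk1 at 51.8% had log2 ratios of -0.30 and -1.01, both below the median of 0.89 for genes from 50% to 54%. In the class from 54% to 58% the median was 2.75. There Kcnk5, at 55.2%, had a log2 ratio of 2.22, Kcnk13, at 55.5%, had 0.45, and Kcnk9, at 55.2%, had 4.92. Kcnk3, at 59.1%, had 2.17 where the median of its class was 4.66. So of the 7 members Kcnk9 and Kcnk2 lay above the median of their GC class and the other 5 lay below it.

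**Figure D3:**
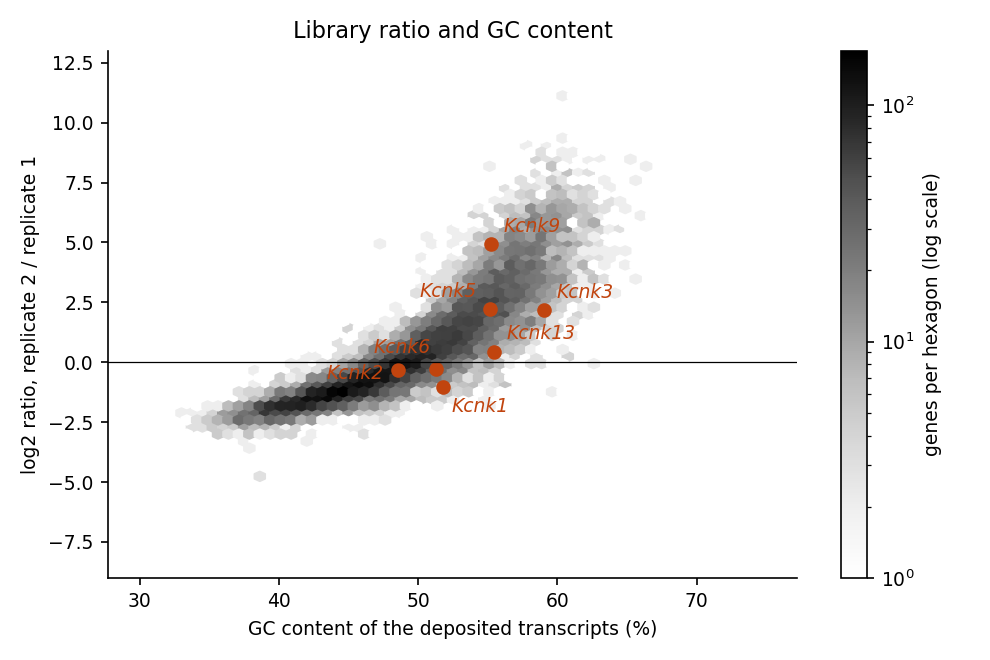
Log2 ratio of replicate 2 to replicate 1 on TMM-scaled counts against GC content of the deposited transcripts (percent); grey hexagons count the tested genes on a log scale and points are the 7 tested members. The ratio climbs with GC content, with Kcnk9 at 4.92 above the bulk of genes of like GC content and Kcnk3 at 2.17 below it.

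Removing the GC trend of the deposited transcripts left Kcnk9 as the single member called higher and turned Kcnk3 to lower. With the smooth trend over the GC content of the deposited transcripts removed, 12.9% of 13686 genes were called higher in replicate 2 and 9.28% lower, beside 1 member higher and 3 lower. With annotated GC content 1 member was higher beside 15.9% of genes and 4 were lower beside 11.2%. With coding GC content 2 were higher beside 35.1% of genes and 3 were lower beside 12.8%. With GC and length together 1 was higher beside 12.1% of genes and 3 were lower beside 9.26%. Kcnk9 kept a log2 ratio of 2.43, and it was also called higher with the trend over coding GC content (3.97), the trend over annotated GC content (5.53) or GC and length trends together (2.11) removed. The annotated value rests on the 12300-base transcript at 47.9% GC, which is not the sequence counted here. Kcnk3 went to -1.88 and was called lower, likewise at -1.67 with annotated GC content, while with coding GC content it stood at -0.11 and was not called. Kcnk5 went to -0.26 and its call ended, but with coding GC content it kept the call at 1.74. Kcnk1 stood at -1.81 and was called lower under each of the GC corrections, and Kcnk13 at -2.16 was newly called lower under each. Kcnk6 stood at -0.86 and Kcnk2 at 0.13, neither called, but Kcnk6 was called lower with annotated GC content (-1.57) and with coding GC content (-2.61). The direction for Kcnk2, Kcnk3, Kcnk5 and Kcnk13 therefore depended on this correction, and the deposited levels are not estimates for the gland free of it.

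**Figure D4:**
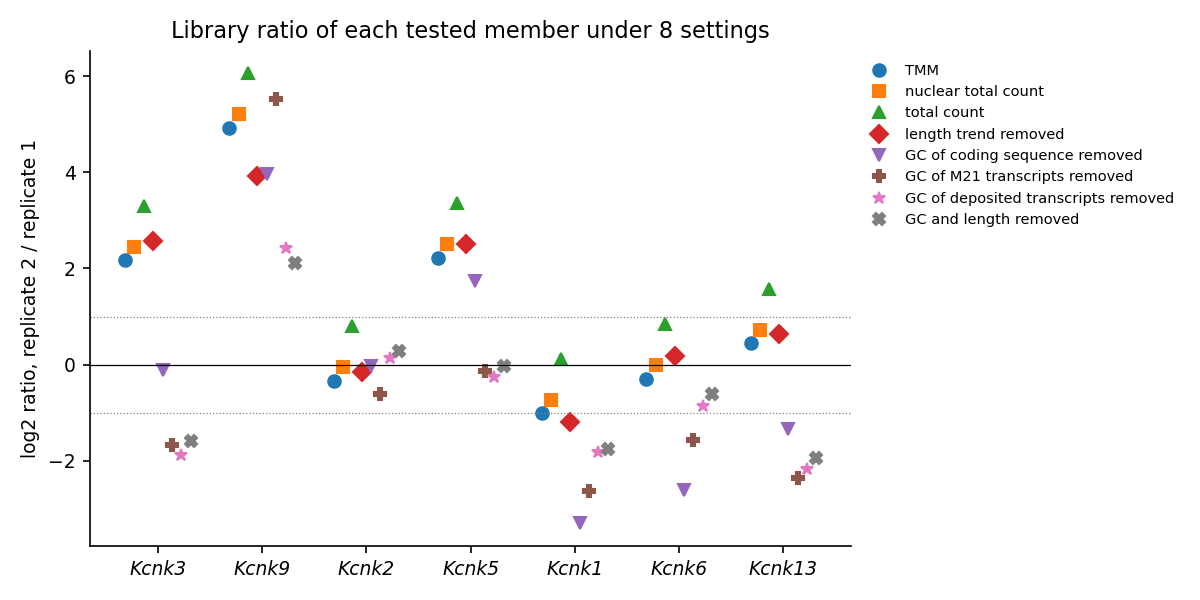
Log2 ratio of replicate 2 to replicate 1 for the 7 tested members under 8 scalings and trend corrections; dotted lines mark the 2-fold minimum. Kcnk9 is above it under every setting shown, at 2.11 to 6.06, while Kcnk3 runs from -1.88 to 3.31.

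Set beside other potassium channels, Kcnk3 ranked first in replicate 2 and second in replicate 1 of 81 genes of the listed families by TPM. It took 70.7% of their summed TPM in replicate 2 and 32.4% in replicate 1. Kcnn2, which encodes a small-conductance calcium-activated channel, had 85.0 TPM in replicate 2 and 46.5 TPM in replicate 1 and stood above Kcnk3 in replicate 1. Kcnma1, the large-conductance calcium-activated channel of chromaffin cells, had 19.3 TPM in replicate 2 and 5.04 TPM in replicate 1. Kcnk9 held place 3 in replicate 2 and place 23 in replicate 1.

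**Figure D5:**
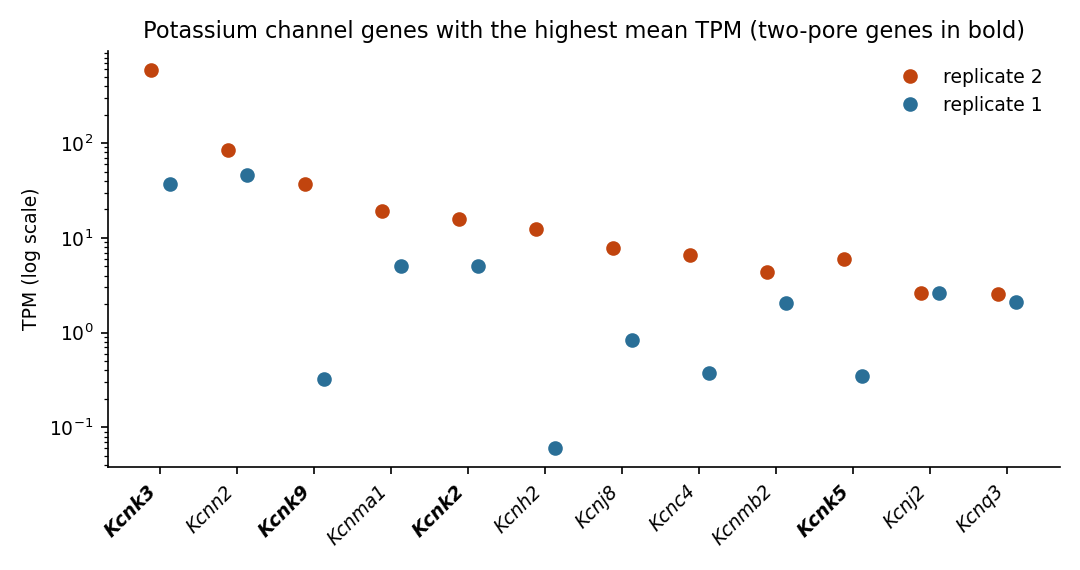
TPM (log axis) in replicate 2 and replicate 1 for the 12 potassium channel genes with the highest mean TPM, two-pore genes in bold. Kcnk3 leads in replicate 2 at 595 TPM, and Kcnn2 leads in replicate 1 at 46.5 TPM.

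In the other families calls ran in both directions. Among all tested genes 36.5% were called higher and 27.8% lower, and 12.9% and 9.28% with the GC trend of the deposited transcripts removed. GC-corrected ratios of these genes are from that correction unless another is named. Of 15 inward rectifiers 8 were tested, 3 of them higher and 2 lower in replicate 2 (median log2 ratio -0.20), and none was called after GC correction. With coding GC content Kcnj10 (-1.71) and Kcnj15 (-1.11) were called lower. The leading inward rectifiers were Kcnj8, which encodes Kir6.1, at 7.86 TPM in replicate 2 and 0.84 TPM in replicate 1, Kcnj2 at 2.61 TPM in replicate 2 and 2.62 TPM in replicate 1, and Kcnj12 at 2.90 TPM in replicate 2 and 0.07 TPM in replicate 1. Kcnj12 had the largest ratio upward, a log2 ratio of 3.36, and Kcnj2 downward, -1.85. Kcnj5, a channel gene mutated in human aldosterone-producing adenomas, had 20 counts in replicate 2 and 13 counts in replicate 1. Of 12 calcium- and sodium-activated genes 8 were tested, with 2 higher, among them Kcnt1 at 3.74 on the log2 scale, and 1 lower, Kcnt2 at -2.05. After GC correction neither was called, with Kcnt1 at 0.56 and Kcnt2 at 0.48, while Kcnmb2 was called higher (1.02) and Kcnn3 lower (-3.26). With coding GC content Kcnt1 was called higher (1.96), Kcnmb1 was called lower (-1.13) and Kcnmb2 was not called (-0.03). Kcnn3 was not called with annotated GC content (0.07). Kcnn2 was called lower with annotated GC content (-1.60), coding GC content (-2.34) and GC and length together (-1.08). The third of that family by level was Kcnmb2, an accessory subunit, at 4.33 TPM in replicate 2 and 2.04 TPM in replicate 1. Of 40 voltage-gated genes 21 were tested, with 7 higher and 7 lower. The leading ones were Kcnh2, the hERG channel, at 12.5 TPM in replicate 2 and 0.06 TPM in replicate 1, Kcnc4, a Kv3 channel, at 6.56 TPM in replicate 2 and 0.37 TPM in replicate 1, and Kcnq1, a slow delayed rectifier, at 4.53 TPM in replicate 2 and 0.13 TPM in replicate 1. Kcnq3 equalled Kcnq1 in mean TPM, with 2.56 TPM in replicate 2 and 2.10 TPM in replicate 1. The largest ratio downward was that of Kcnb2, at -1.69 on the log2 scale. The log2 ratio of Kcnh2 was 5.43, and 0.82 after GC correction, where it was not called. It was still called higher with coding GC content (2.92) and with GC and length together (1.12). After GC correction 6 of the 17 genes with a GC value were lower and none higher.

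Genes that act on these channels or on the depolarisation they oppose were present. Gq proteins and phospholipase C close TASK channels: Plcb1 had 67.4 TPM in replicate 2 and 48.4 TPM in replicate 1, Gna11 had 53.8 TPM in replicate 2 and 0.85 TPM in replicate 1, and Gnaq had 25.9 TPM in replicate 2 and 15.1 TPM in replicate 1. Of the 6 genes of this list 3 were higher and 3 lower in replicate 2, and 1, Gna11, stayed called after GC correction, at a log2 ratio of 1.21. With coding GC content Plcb3 was called higher as well (1.39). Of the 4 Gq-coupled receptors Agtr1a, the angiotensin II receptor, led at 141 TPM in replicate 2 and 68.2 TPM in replicate 1. Its paralog Agtr1b followed at 8.31 TPM in replicate 2 and 5.81 TPM in replicate 1 and was called lower (log2 ratio -1.33), and the muscarinic receptor gene Chrm3 had 1.61 TPM in replicate 2 and 0.28 TPM in replicate 1. The histamine receptor gene Hrh1 was called higher at 1.72, and none of the 4 was called after GC correction. With coding GC content Chrm3 was called higher (1.08). For trafficking and binding proteins 12 of 13 were tested, 1 higher and 7 lower. After GC correction 2 of 11 were higher, S100a10 and Stx8, and 1 was lower, Ywhah at -1.17. Ywhah was not called with annotated (-0.73) or coding GC content (-0.22), nor Stx8 with GC and length together (0.67). Arf6, without a deposited GC value, was called lower with annotated (-6.05) and coding GC content (-3.89). With coding GC content Ywhag was called lower (-2.06) and Copb1 higher (1.02). The gene called higher on TMM-scaled counts was S100a10, which encodes the TASK-1 partner p11, at 175 TPM in replicate 2 and 15.7 TPM in replicate 1 and a log2 ratio of 1.63 that was 1.03 after GC correction. With GC and length together it stood at 0.44 and was not called. Proteins of the 14-3-3 family bind TASK channels and favour their surface transport. The 14-3-3 genes Ywhae, Ywhaq and Ywhaz had 309, 207 and 184 TPM in replicate 2, against 348, 96.1 and 114 TPM in replicate 1. The largest ratio downward of the list was that of Map2, which encodes a microtubule-associated protein, at -1.84, and it was not called after GC correction (-0.16). Among the calcium channels that open on depolarisation, Cacna1h had 49.6 TPM in replicate 2 and 0.66 TPM in replicate 1 with a log2 ratio of 4.64, Cacna1c had 26.7 TPM in replicate 2 and 4.74 TPM in replicate 1, and Cacna1d had 3.41 TPM in replicate 2 and 1.04 TPM in replicate 1. Of 5 such genes 3 were higher and none lower, and none was called after GC correction, where Cacna1h stood at 0.29. With coding GC content Cacna1h stayed called higher (2.21), and with annotated GC content Cacna1c was called lower (-1.15).

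Zone and cell type markers give the tissue context of the members. Zona glomerulosa markers summed to 752 TPM in replicate 2 and 263 TPM in replicate 1 over 7 genes, all at a TPM of at least 1 in both. On TMM-scaled counts they ran both ways, with 2 higher and 3 lower in replicate 2, and their median was -0.80 on the log2 scale. The higher ones were Cyp11b2, the aldosterone synthase, and Wnt4, and the lower ones were Dab2, Vsnl1 and Agtr1b. With the GC trend of the deposited transcripts removed, 1 of the 7, Cyp11b2 (2.61), was called higher and none lower. Their median log2 ratio was then 0.27. Chromaffin markers summed to 4518 TPM in replicate 2 and 351 TPM in replicate 1 over 6 genes, of which 4 were called higher and none lower, and 2 higher and 1 lower after GC correction. Zona fasciculata markers summed to 11040 TPM in replicate 2 and 2586 TPM in replicate 1 over 4 genes. Markers of brown and white fat, also 4 genes, summed to 2285 TPM in replicate 2 and 462 TPM in replicate 1. Each fat marker exceeded 1 TPM in each library. After GC correction 3 of them were called higher and none lower, with a median log2 ratio of 1.39. The part of fat in the level of Kcnk3 or any other member was not tested. The RNA was that of the whole tissue sample, so no member could be placed in a zone or cell type.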

How the data were processed

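RNA of 1 adrenal sample was measured in 2 technical libraries. The authors deposited, per library, a gene and a transcript table with expected counts (estimated fragments, not whole), TPM and FPKM. They also deposited posterior mean TPM with its interval bounds, treated here as a score, and transcript shares in percent. Per the deposited notes, reads were placed on mm10 with GENCODE M4. The sources used here do not name the aligner, the counting program or a version.

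Members and lists were chosen with earlier results of these data known. Named genes were all members and, per list, the 3 with the highest mean TPM and called genes with the largest ratio each way. With 2 libraries no likeness of pattern between genes was computed.

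Counts were rounded. Ensembl genes summing to 20 counts or more were scaled by TMM (edgeR 4.0.16, R 4.3.3) and compared by the exact binomial test (two-sided, given the summed count, scipy 1.17.1), Benjamini-Hochberg adjusted over all tested genes. Having no residual degrees of freedom, the libraries allowed no quasi-likelihood test. The calling of genes was tested on simulated counts with counting error only, known library sizes and no GC trend. The trend fit was tested on counts with a simulated GC trend. Neither check shows how well the calls hold in these libraries. Log2 ratios used a prior count of 0.5. Trends were natural splines with 5 degrees of freedom (patsy 1.0.2). GC content came from GENCODE M21 (GRCm38), since M4 was not used here. Transcripts differing from M21 by over 10% in length were left out unless they matched the coding sequence. Copies were sought with BLAST 2.17.0, which gave 15 nuclear copies of mitochondrial genes. DESeq2 1.42.0 size factors were an alternative. No protein sequences were used.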

Additional observations from a re-analysis of the deposited data

How the results depend on the processing

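No paired analysis was possible because the libraries form 1 group. The 3 members higher in replicate 2 became 1, Kcnk9, with the trend over annotated GC content, over deposited GC content, or over GC and length removed. The 1 lower member became 0 with total-count scaling, nuclear total-count scaling or no count filter, 2 without a fold minimum, 4 with annotated GC content, and 3 with deposited GC content, coding GC content (added after seeing the data) or GC and length. Members reaching 1 TPM in both libraries numbered 3, but 6 after rescaling over nuclear genes, and 3 to 6 when either library was left out. Total-count scaling moved the median log2 ratio of all genes from 0.10 to 1.24, nuclear scaling to 0.39 and coding GC content to 0.65. It reversed Kcnk1 (0.12), Kcnk2 (0.80) and Kcnk6 (0.84). Removing the length trend reversed Kcnk6 (0.17). Removing the trend over annotated GC, deposited GC, coding GC, or GC and length reversed Kcnk3 (-1.67, -1.88, -0.11 and -1.59) and Kcnk13 (-2.35, -2.16, -1.33 and -1.94). Annotated GC, deposited GC, or GC and length reversed Kcnk5 (-0.13, -0.26 and -0.020), and the last 2 reversed Kcnk2 (0.13 and 0.29). Beyond what each correction removes, the cause was not tested. Kcnk9 was called higher in every setting run. Counts of 11 to 87 limit Kcnk1, Kcnk6, Kcnk13 and, in replicate 1, Kcnk9 and Kcnk5.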
